A study of Homo sapiens with 30 samples.

Results

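The genes with which a cell makes cholesterol, takes it up and moves it between membranes were followed across A549 cells kept with herbal extracts. The list holds 31 genes, chosen by symbol for their known function. Earlier results of these data were known when the list was chosen. Each symbol matched 1 row of the deposited table of 60675 genes. Of the 31 genes, 30 passed the filter on low counts, among 17461 genes tested. NPC1L1, the transporter that takes up cholesterol in the intestine, did not pass it and had no test.

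A549, a widely used human cell line of lung carcinoma, serves as a model of lung epithelial cells and was grown in medium with bovine serum. Over 24 h the cells received ethanol extracts of the Korean formulas Yijin-tang, Soshiho-tang, Soyo-san and Okbyeongpung-san, 1 extract to a library at 20, 100 or 500 µg/mL, or dimethyl sulfoxide alone (vehicle, 0.1% in the labels and 2% in the series text). Vehicle and each dose of Soshiho-tang and Yijin-tang had 3 RNA libraries, each dose of Okbyeongpung-san had 2 and each dose of Soyo-san had 1. The labels name no compound of the extracts and do not say whether libraries came from separate cultures, so p-values measure the spread between libraries, which may be technical.

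Cholesterol is built from acetyl-CoA through mevalonate, isoprenoid units, squalene and lanosterol. The transcription factor SREBP2, encoded by SREBF2, drives most genes of the route. When sterol in the endoplasmic reticulum falls, SCAP carries SREBP2 to the Golgi, where it is cleaved and released to the nucleus. When sterol is ample, INSIG1 and INSIG2 hold SCAP back. Sterol that arrives from outside leaves the lysosome through NPC2 and NPC1, and excess is stored as ester by SOAT1.

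The 30 libraries held 19833172 to 38008508 counts. The vehicle libraries held 19833172 to 22327675 and the treated libraries 24560802 to 38008508, so that each treated library was deeper than each vehicle library. Mitochondrially encoded messenger RNA made up 10.5% to 10.9% of counts in vehicle and 6.22% to 9.89% in treated libraries, and 7 to 12 of the 13 such genes were lower than in vehicle at 500 µg/mL of the 3 replicated extracts. Among the 2 libraries of Okbyeongpung-san at 500 µg/mL, replicate 2 held 38008508 counts with 9.89% mitochondrial messenger RNA and replicate 3 held 27540435 with 6.73%. Titles place replicate 2 in batch E and replicate 3 in batch D, and the same split holds at 100 and 20 µg/mL. The remaining libraries of batch D were the 3 of Soyo-san, and vehicle was in batch E only. The keratin KRT8 was at 2577 to 3862 CPM (counts scaled to 1e6 per library). Of the other epithelial genes, KRT18 was at 2022 to 2729 CPM and KRT7 at 1902 to 2685 CPM. KRT19 was at 24.4 to 37.2 CPM, CDH1 at 26.6 to 34.5 CPM and EPCAM at 3.91 to 6.35 CPM. CD3E had 0 counts in each library, and the leukocyte gene PTPRC was at most 0.0380 CPM. Of 6 immune genes CD68 was at 6.80 to 17.1 CPM and CD14 at 1.68 to 4.36 CPM, and the other 4 were at 0.158 CPM or less. Of 6 fibroblast genes COL1A1 was at 16.3 to 31.9 CPM and COL3A1 at 4.56 to 6.63 CPM, with DCN at 0.0709 CPM or less and LUM, COL1A2 and PDGFRB below 1 CPM. The 4 endothelial genes, VWF among them, were at 0.353 CPM or less. In bulk RNA, fewer cells of a type and less RNA per cell cannot be told apart.

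Promoters of the genes on which the results turn are given from RefSeq (GRCh38.p14) as the part of the window of 250 bases before a RefSeq start that lies before the outermost start of the gene in GENCODE 29, 5′ to 3′ on the strand of the gene. The printed stretches therefore end 27 to 105 bases before that RefSeq start, which leaves out a second ATTGG of HMGCS1 (100 to 96 bases before it) and a CACGTG of INSIG1 (55 to 50 bases before it). IDI1 has another RefSeq start farther upstream, whose window held no CCAAT and is not shown. Windows of starts farther downstream are also not shown. That of IDI1 at chr10:1048887-1049136 held 3 matches to CCAAT, and that of HMGCS1 at chr5:43313182-43313431 held 0. Capitals mark a match to the core of the sterol regulatory element, searched as TCACNCCAC, or to CCAAT, the site of the factor NF-Y, on either strand. ATTGG is CCAAT on the opposite strand. HMGCS1 lies at chr5:43313513-43313662 (minus strand), IDI1 at chr10:1049171-1049369 (minus), LSS at chr21:46228825-46229024 (minus), INSIG1 at chr7:155297628-155297775 (plus), STARD4 at chr5:111512591-111512785 (minus), SREBF2 at chr22:41832855-41833078 (plus) and LBR at chr1:225428926-225429071 (minus). The first 5 genes had their lowest libraries of the series at 500 µg/mL of Okbyeongpung-san, SREBF2 encodes the factor itself, and LBR is shown for a fall with Soshiho-tang and no match in its window.
HMGCS1: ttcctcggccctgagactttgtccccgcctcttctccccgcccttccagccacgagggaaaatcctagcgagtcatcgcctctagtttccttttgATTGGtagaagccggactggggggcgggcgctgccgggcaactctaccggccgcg
IDI1: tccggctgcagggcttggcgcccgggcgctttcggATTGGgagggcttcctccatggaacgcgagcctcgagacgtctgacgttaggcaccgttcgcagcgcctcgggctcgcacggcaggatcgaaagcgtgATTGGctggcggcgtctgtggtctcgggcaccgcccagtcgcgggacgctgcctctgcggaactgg
LSS: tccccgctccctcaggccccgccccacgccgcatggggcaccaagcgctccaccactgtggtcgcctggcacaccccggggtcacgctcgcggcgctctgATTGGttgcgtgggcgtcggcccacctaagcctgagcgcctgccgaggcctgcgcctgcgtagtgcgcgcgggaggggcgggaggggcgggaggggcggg
INSIG1: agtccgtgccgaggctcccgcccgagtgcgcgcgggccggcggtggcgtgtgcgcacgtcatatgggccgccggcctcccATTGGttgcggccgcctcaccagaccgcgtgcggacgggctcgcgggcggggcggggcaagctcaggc
STARD4: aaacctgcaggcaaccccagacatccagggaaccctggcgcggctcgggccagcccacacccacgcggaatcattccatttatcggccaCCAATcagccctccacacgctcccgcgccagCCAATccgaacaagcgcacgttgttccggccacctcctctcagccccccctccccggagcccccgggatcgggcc
SREBF2: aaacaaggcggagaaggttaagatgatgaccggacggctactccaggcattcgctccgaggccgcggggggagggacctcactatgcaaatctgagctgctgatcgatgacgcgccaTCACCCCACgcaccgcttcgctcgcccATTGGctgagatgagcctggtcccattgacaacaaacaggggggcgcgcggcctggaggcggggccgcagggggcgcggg
LBR: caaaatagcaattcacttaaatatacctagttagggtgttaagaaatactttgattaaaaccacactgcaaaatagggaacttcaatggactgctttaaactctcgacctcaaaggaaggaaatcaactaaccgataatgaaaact

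Of the 31 genes, 28 were in the RefSeq promoter table, and ACAT2, SQLE and FDFT1 were named only. CCAAT was found within 250 bases before the start in 22 of 28 (78.6%), beside 37.0% of the 27305 symbols of the table. These symbols were not limited to genes expressed here, and a symbol counted if the window of any of its starts matched. The letters TCACNCCAC were found in 1 of 28, the promoter of SREBF2, beside 1.09% of all symbols. There the match is TCACCCCAC, 133 to 125 bases before the RefSeq start, followed by ATTGG 106 to 102 bases before it. CACGTG, the palindromic E-box, was found in 3 of 28 (INSIG1, SC5D and SCAP; 10.7%), beside 7.73%. A match is a description of letters in this window and not a measured site.

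Levels between genes were compared as CPM per kilobase of the principal transcript. By the median over 30 libraries the highest were FDPS at 66.97 CPM per kilobase, TMEM97 at 54.0 and HMGCS1 at 51.05. FDPS makes farnesyl pyrophosphate and has 8 named pseudogenes that could share its reads. The lowest of the tested genes were INSIG2 at 3.94, TM7SF2 at 3.99 and STARD4 at 5.99 CPM per kilobase. NPC1L1 had 0.0202 CPM per kilobase and 1 to 8 counts per library. Over the 30 libraries the ratio of the highest to the lowest CPM of a tested gene was between 1.265 for ERG28 and 2.20 for INSIG1, with STARD4 at 2.12 and HMGCS1 at 2.085.

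With Soshiho-tang, 13 of 30 genes were lower at 500 than at 20 µg/mL and 1 was higher, beside 10.2% of all genes tested that were lower and 10.3% that were higher. The median log2 fold change was −0.12 over the 30 genes and 0.00 over all genes. The genes that fell were ACAT2, HMGCS1 and MVK of the mevalonate steps, IDI1, the squalene and lanosterol enzymes FDFT1, SQLE and LSS, the later enzymes LBR, EBP and SC5D, the regulator INSIG1, and TMEM97 and SOAT1. NPC1 rose.

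HMGCS1, which makes HMG-CoA at the start of the mevalonate route, was at 139.7, 136 and 135 CPM in the libraries at 500 µg/mL and at 189, 176 and 178 CPM at 20 µg/mL. The 2 doses did not overlap, and the vehicle libraries (179, 179 and 169 CPM) lay with the low dose. HMGCS1 fell by 0.41 on the log2 scale (standard error, SE, 0.06, adjusted p = 3.82e-05). ACAT2, which joins acetyl-CoA units in the step before, was at 29.5, 28.9 and 27.2 CPM at 500 µg/mL and at 38.0, 33.8 and 33.7 CPM at 20 µg/mL. The low dose was again above the high dose in each library, and ACAT2 fell by 0.30 (SE 0.08, adjusted p = 0.00698). ACAT2 overlaps TCP1 on the opposite strand. MVK, the kinase of mevalonate, fell by 0.24. PMVK, the next kinase, did not pass the test, at 24.5, 25.1 and 22.2 CPM against 23.3, 20.4 and 17.9 CPM.

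In the isoprenoid steps IDI1, the isomerase of the 5-carbon building block, was at 54.2, 51.6 and 53.3 CPM at 500 µg/mL and at 68.6, 64.5 and 63.8 CPM at 20 µg/mL. Its high-dose libraries were also below the vehicle libraries at 59.4, 55.9 and 57.2 CPM. IDI1 fell between the doses by 0.31 (SE 0.06, adjusted p = 0.000605). FDPS was at 103, 101 and 95.3 CPM against 99.9, 99.6 and 93.9 CPM, which overlapped and did not pass the test. GGPS1, which extends the chain for protein prenylation, did not pass it either.

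The 3 enzymes from farnesyl pyrophosphate to lanosterol all fell with Soshiho-tang by small steps. FDFT1, which makes squalene, was at 108, 110.0 and 112 CPM against 121, 124 and 121 CPM, without overlap, and fell by 0.15 (SE 0.05, adjusted p = 0.0216). SQLE, the epoxidase of squalene, was at 113, 112 and 123 CPM against 127, 129.5 and 135 CPM and fell by 0.17 (SE 0.06, adjusted p = 0.0301). LSS, which closes the rings of lanosterol, was at 40.1, 35.1 and 34.5 CPM against 45.3, 43.1 and 39.4 CPM. For LSS the high-dose replicate 1 lay above the low-dose replicate 3, and it fell by 0.22 (SE 0.06, adjusted p = 0.0134). The high-dose libraries of LSS overlapped the vehicle libraries (36.1, 36.8 and 37.6 CPM).

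Of the 10 genes from lanosterol to cholesterol, 9 enzymes and the scaffold ERG28, 3 fell and 7 did not pass the test. LBR, a reductase of the sterol ring that also anchors chromatin at the nuclear envelope, was at 96.7, 93.8 and 96.0 CPM at 500 µg/mL and at 121, 121 and 125 CPM at 20 µg/mL. The groups were far apart, and LBR fell by 0.36 (SE 0.07, adjusted p = 0.000709). TM7SF2 encodes a second reductase for the same ring position as LBR and was at 6.93, 7.85 and 7.91 CPM against 6.88, 7.42 and 6.45 CPM, which did not pass the test. MSMO1, the methyl oxidase, was at 41.0, 37.3 and 36.8 CPM against 37.7, 35.5 and 36.0 CPM, also without a call. EBP, the sterol isomerase, fell by 0.23 and SC5D, the desaturase, by 0.23. CYP51A1, the demethylase of lanosterol, had a log2 fold change of 0.08 (SE 0.08, adjusted p = 0.507).

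Of the 4 genes of SREBP2 control, INSIG1 fell. It was at 36.6, 32.9 and 36.5 CPM at 500 µg/mL and at 39.6, 43.8 and 39.6 CPM at 20 µg/mL, a fall by 0.22 (SE 0.07, adjusted p = 0.0201). INSIG2 was at 11.6, 12.5 and 11.1 CPM against 10.1, 9.35 and 11.0 CPM, higher in each library but not past the test. SREBF2 was at 128, 119 and 114 CPM against 117, 119 and 114 CPM, which overlapped.

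Genes of sterol traffic went in both directions with Soshiho-tang. NPC1, the membrane protein through which cholesterol leaves the lysosome, was at 65.8, 69.1 and 67.9 CPM at 500 µg/mL and at 54.1, 53.8 and 56.0 CPM at 20 µg/mL. Each high-dose library was also above each of the other 27 libraries, and NPC1 rose by 0.31 (SE 0.05, adjusted p = 3.32e-05). TMEM97, the sigma-2 receptor, which binds NPC1, was at 113, 113 and 113 CPM against 142, 142 and 147 CPM. These were the lowest 3 of the 30 libraries, and TMEM97 fell by 0.34 (SE 0.04, adjusted p = 4.76e-07). SOAT1 was at 64.4, 62.9 and 66.0 CPM against 75.2, 75.3 and 77.1 CPM and fell by 0.24 (adjusted p = 0.00561). NPC2, the soluble partner of NPC1, was at 44.9, 41.6 and 42.3 CPM against 41.7, 39.6 and 35.1 CPM, with overlap and no call.

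The calls of HMGCS1, IDI1, LBR, NPC1, TMEM97 and SOAT1 held when each of the 6 libraries was left out in turn. The count of 14 genes became 8 without replicate 2 at 500 µg/mL and 7 without replicate 2 at 20 µg/mL, and the other 8 genes each lost their call in at least 1 omission (ACAT2 without replicate 1 at 20 µg/mL, adjusted p = 0.056; INSIG1 without replicate 2 at 20 µg/mL, adjusted p = 0.164). NEAT1, an abundant nuclear RNA, rose by 0.80 in the same comparison (adjusted p = 9.75e-05), and 1 of 13 mitochondrial genes fell. Of 6 epithelial genes KRT7 (0.39) and KRT19 (0.30) rose and KRT8 (−0.34) and KRT18 (−0.24) fell, and of 3 genes typical of A549 cells AKR1B10 and AKR1C1 fell (both −0.27). COL1A1 of the 3 tested fibroblast genes (−0.57) and CD14 of the 2 tested immune genes (−0.73) fell. The summed fibroblast list was at 21.65 to 26.73 CPM at 500 µg/mL and 30.59 to 36.19 CPM at 20 µg/mL, and the immune list at 12.7 to 17.83 CPM and 11.4 to 13.64 CPM. The part of these genes in the result was not tested.

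**Figure D1:**
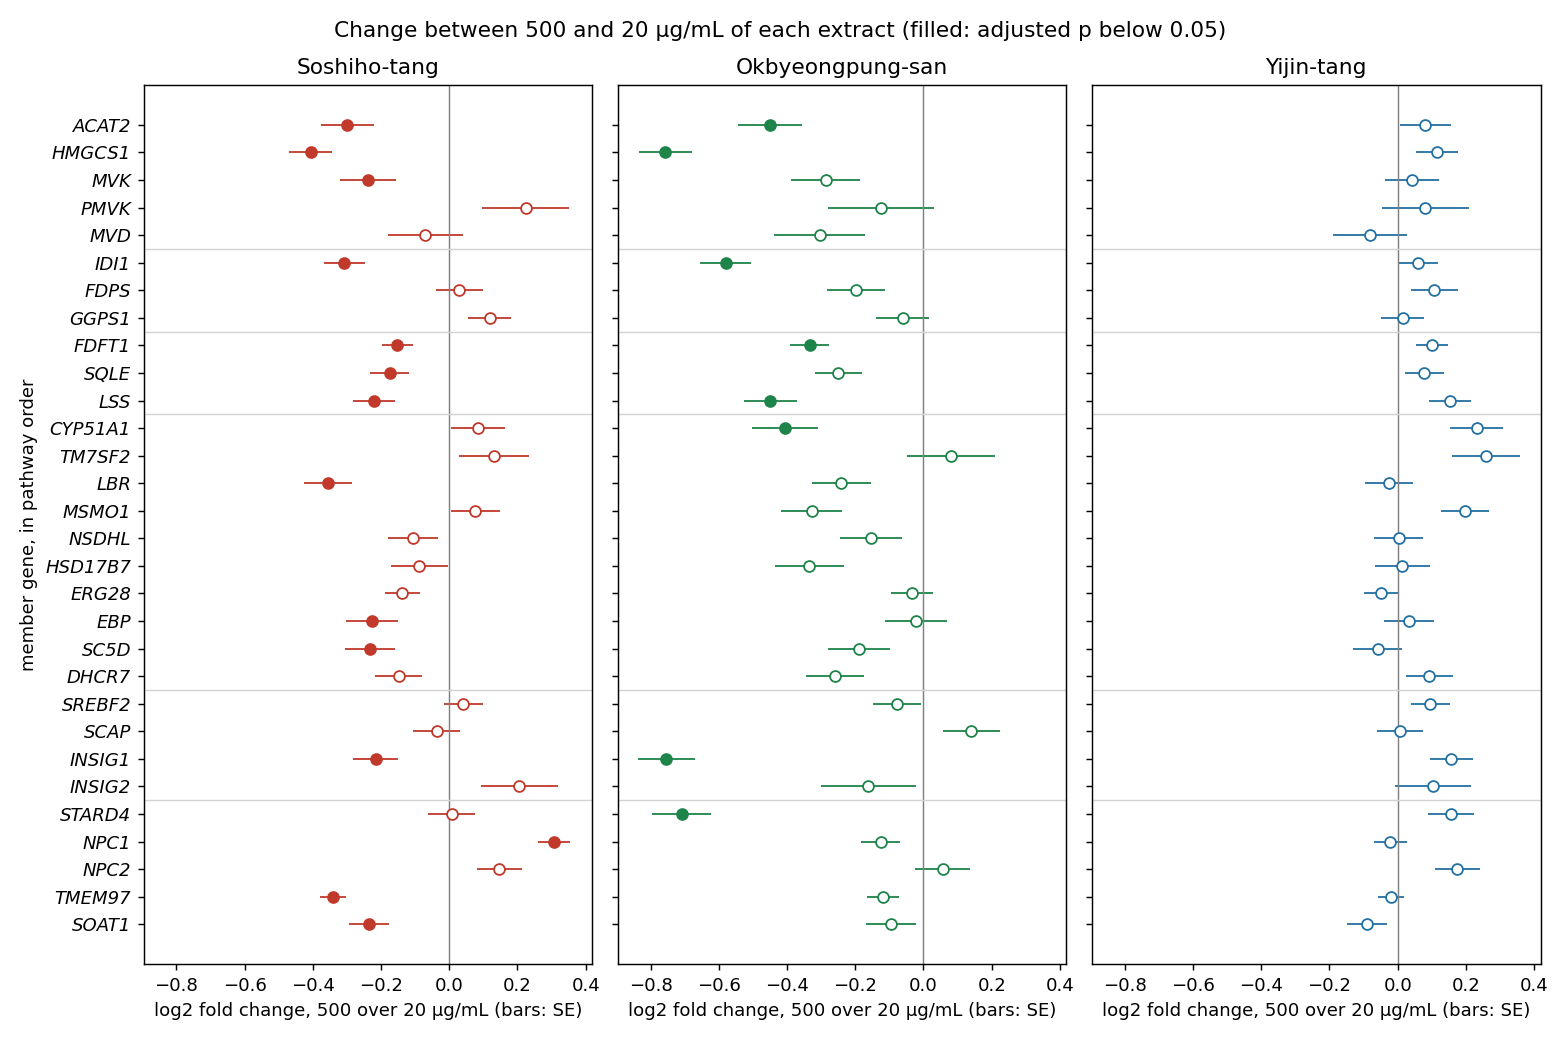
Log2 fold change of the 30 tested genes between 500 and 20 µg/mL of Soshiho-tang, Okbyeongpung-san and Yijin-tang, in pathway order from top to bottom, with bars of 1 SE and filled points for an adjusted p below 0.05. Soshiho-tang had 14 filled points, Okbyeongpung-san 8 and Yijin-tang 0, and the points farthest to the left were HMGCS1, INSIG1 and STARD4 with Okbyeongpung-san.

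The lowest summed level of the sterol genes was that of Okbyeongpung-san at 500 µg/mL. At 500 against 20 µg/mL, 8 of 30 genes were lower and 0 were higher, beside 0.613% of all genes tested that were lower and 0.979% that were higher. The median was −0.22 over the 30 genes and −0.00 over all genes. The genes that fell were ACAT2, HMGCS1, IDI1, FDFT1, LSS, CYP51A1, INSIG1 and STARD4. With 2 libraries a dose, these calls rest on the estimate of spread shared over 10 groups. None of the marker, nuclear or mitochondrial genes tested was called in this comparison, while the summed immune list was at 12.96 to 21.62 CPM at 500 µg/mL and 10.18 to 11.01 CPM at 20 µg/mL, and the fibroblast list at 27.36 to 32.06 CPM and 33.05 to 33.96 CPM. The part of these in the result was not tested.

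HMGCS1 was at 99.2 and 124 CPM at 500 µg/mL of Okbyeongpung-san and at 186 and 190.4 CPM at 20 µg/mL. These were the 2 lowest of the 30 libraries, and HMGCS1 fell by 0.76 (SE 0.08, adjusted p = 4.66e-06). INSIG1, itself a target of SREBP2, was at 22.3 and 22.4 CPM against 37.2 and 38.0 CPM. The next lowest library of the series was at 32.9 CPM, and INSIG1 fell by 0.75 (SE 0.08, adjusted p = 9.12e-06). IDI1 was at 43.1 and 47.5 CPM against 68.0 and 67.2 CPM, also the lowest 2 libraries, and fell by 0.58 (SE 0.07, adjusted p = 8.74e-05).

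STARD4, a soluble carrier of cholesterol between membranes, is given by library because its values stood out after they were seen. It was at 15.2 and 19.7 CPM at 500 µg/mL and at 28.9 and 27.9 CPM at 20 µg/mL, while the other 28 libraries were at 25.2 CPM or more. STARD4 fell by 0.71 (SE 0.09, adjusted p = 4.65e-05). With Soshiho-tang it was at 29.8, 26.3 and 29.1 CPM at 500 µg/mL and 27.6, 27.8 and 29.3 CPM at 20 µg/mL, with overlap.

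Smaller falls with Okbyeongpung-san were found along the route to lanosterol. FDFT1 was at 101 and 95.8 CPM against 122 and 126 CPM (a fall by 0.33, adjusted p = 0.00248). LSS was at 31.9 and 29.9 CPM against 43.7 and 40.7 CPM (a fall by 0.45, adjusted p = 0.00256). ACAT2 was at 28.4 and 29.5 CPM against 41.1 and 37.8 CPM (a fall by 0.45, adjusted p = 0.0137). In each of these genes both high-dose libraries were below both low-dose libraries. Called or not, that held for 21 of the 30 genes, beside 19.7% of all genes tested. The reverse held for 0 of the 30 genes, beside 19% of all genes tested.

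The 2 high-dose libraries of Okbyeongpung-san differed from each other in several genes. CYP51A1 fell by 0.41 (adjusted p = 0.0319) from libraries at 76.5 and 97.5 CPM, LBR was at 86.5 and 117 CPM, MSMO1 at 25.3 and 32.0 CPM and SOAT1 at 62.0 and 78.5 CPM, and replicate 2 was the lower library in these 4 genes. SREBF2 went the other way, at 117 CPM in replicate 2 and 95.1 CPM in replicate 3. The median coefficient of variation over the 30 genes was 9.35% in this group and 1.96% to 6.41% in the other groups.

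HMGCS1, INSIG1 and STARD4 fell in both batches. Within batch E the log2 fold changes were −0.90, −0.73 and −0.91, and within batch D −0.62, −0.77 and −0.51, with adjusted p between 1.87e-05 and 0.0413. IDI1 was at −0.65 within batch E (adjusted p = 0.00206) and at −0.51 within batch D (adjusted p = 0.0649). In batch D alone 3 genes were called. Without 1 library the count of 8 became 14 (without replicate 3 at 500 µg/mL) or 5 (without replicate 2 or replicate 3 at 20 µg/mL), and HMGCS1, IDI1, INSIG1 and STARD4 were called each time. In a fit of only the 4 libraries compared no gene of the table passed the test, and these 4 genes had log2 fold changes of −0.75, −0.57, −0.74 and −0.70 with adjusted p of 0.594 or more.

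**Figure D2:**
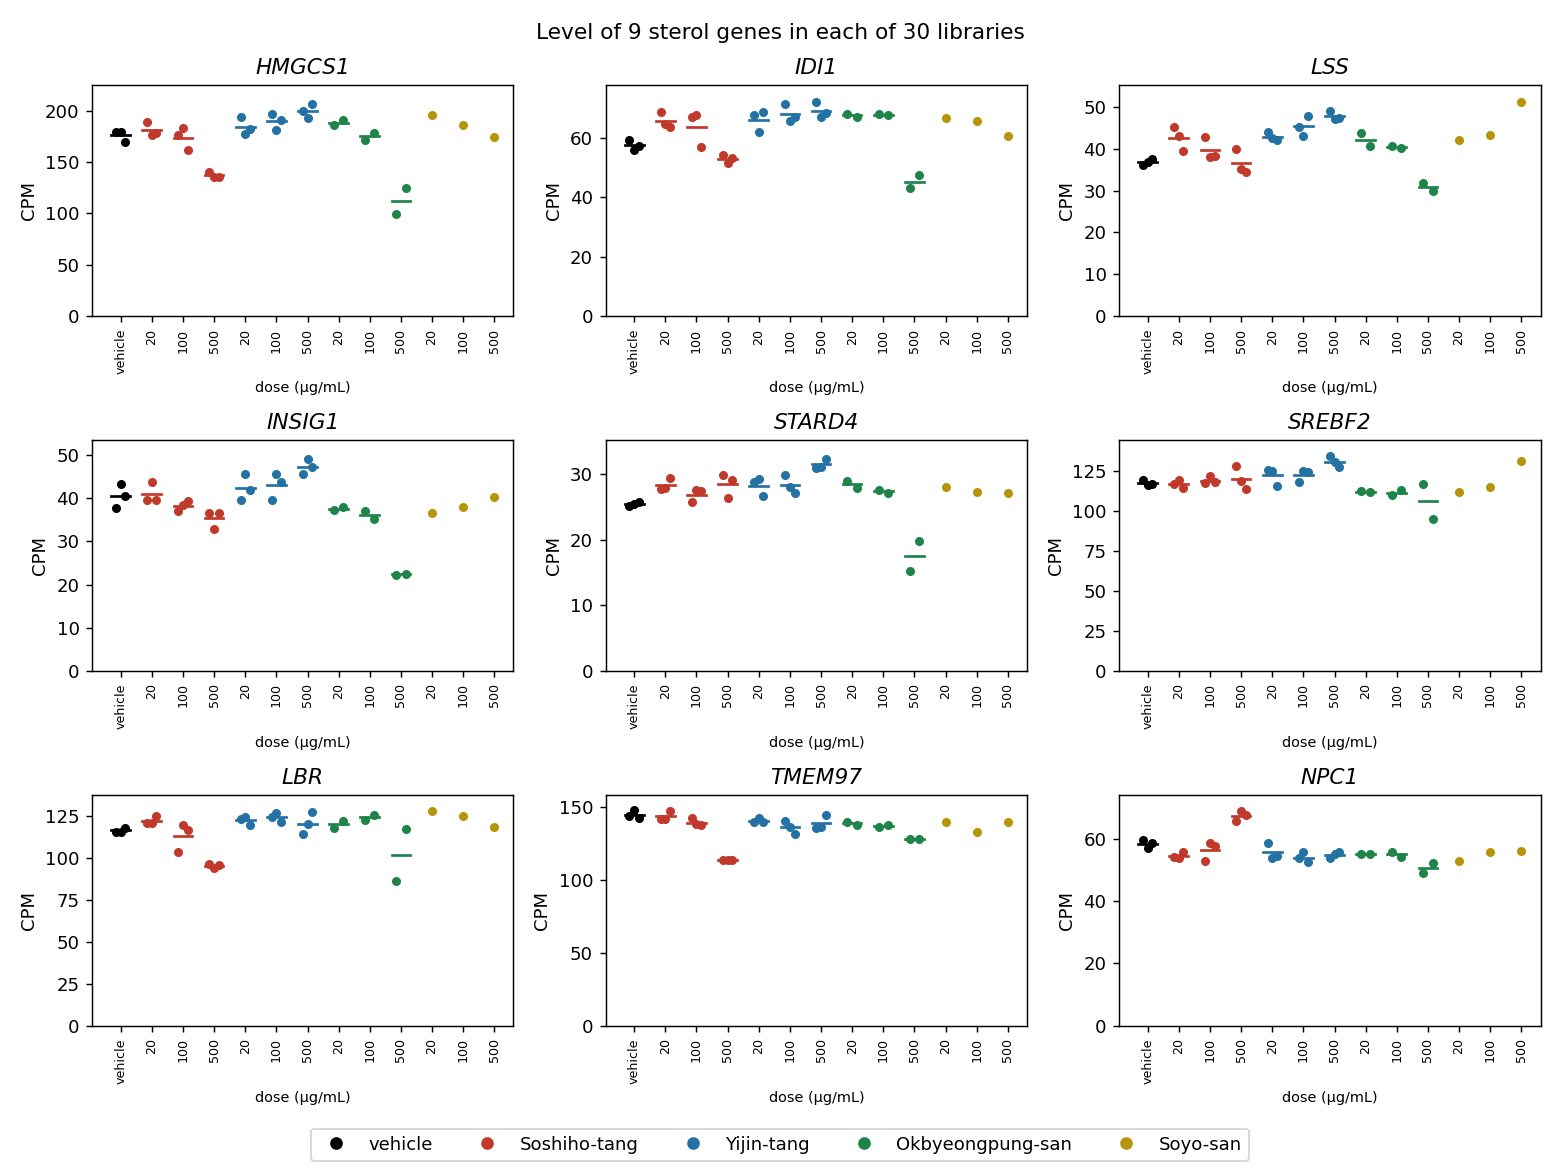
CPM of 9 genes in each of the 30 libraries (points), by extract and dose in µg/mL on the x axis, with a line at the mean of groups of 2 or 3 libraries. The green points at 500 µg/mL of Okbyeongpung-san are the lowest of their panel for HMGCS1, IDI1, LSS, INSIG1 and STARD4, and the red points at 500 µg/mL of Soshiho-tang are the lowest for TMEM97 and the highest for NPC1.

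Yijin-tang showed no fall. At 500 against 20 µg/mL the edgeR test called 0 of 30 genes, beside 0.704% of all genes tested, and DESeq2 called 0. By edgeR 8 genes had an unadjusted p below 0.05, and the share of all genes at that threshold was not counted. The median was 0.08 over the 30 genes. HMGCS1 was at 200.0, 193 and 207 CPM at 500 µg/mL and at 194, 177 and 182 CPM at 20 µg/mL, with overlap. INSIG1 was at 45.7, 49.2 and 47.2 CPM against 39.6, 45.6 and 41.9 CPM, with the high dose above the low dose in each library. LSS was at 49.0, 47.1 and 47.3 CPM against 44.0, 42.7 and 42.0 CPM. Each high-dose library was above each low-dose library in 8 of the 30 genes, beside 6.18% of all genes tested. The reverse held for 1 of the 30 genes, beside 5.81% of all genes tested. The log2 differences of INSIG1 and LSS were 0.16 and 0.15, with 95% intervals of 0.03 to 0.28 and 0.03 to 0.28, and adjusted p of 0.484 and 0.465.

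The dose effects of the extracts were then compared with each other in the same fit, without use of the vehicle libraries. Between Soshiho-tang and Yijin-tang, 8 of 30 genes had a different dose effect, beside 4.04% of all genes tested. The effect of Soshiho-tang was lower for HMGCS1 (difference −0.52, SE 0.09, adjusted p = 0.000568), TMEM97 (−0.32), IDI1 (−0.37), LSS (−0.38), INSIG1 (−0.37), FDFT1 (−0.25) and ACAT2 (−0.38), and higher for NPC1 (0.33, SE 0.07, adjusted p = 0.00345). Without replicate 2 of Soshiho-tang at 500 or at 20 µg/mL, or without replicate 1 of Yijin-tang at 20 µg/mL, 5 genes were called. HMGCS1, IDI1, LSS, NPC1 and TMEM97 were called in each of the 12 omissions. The dose effect of Soshiho-tang was also higher for NEAT1 (0.765, adjusted p = 0.0184). It was lower for COL1A1 (−0.78, adjusted p = 0.00136) and AKR1B10 (−0.27, adjusted p = 0.0361). The other tested nuclear, fibroblast and A549-typical genes were not called. The part of these genes in the result was not tested.

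**Figure D3:**
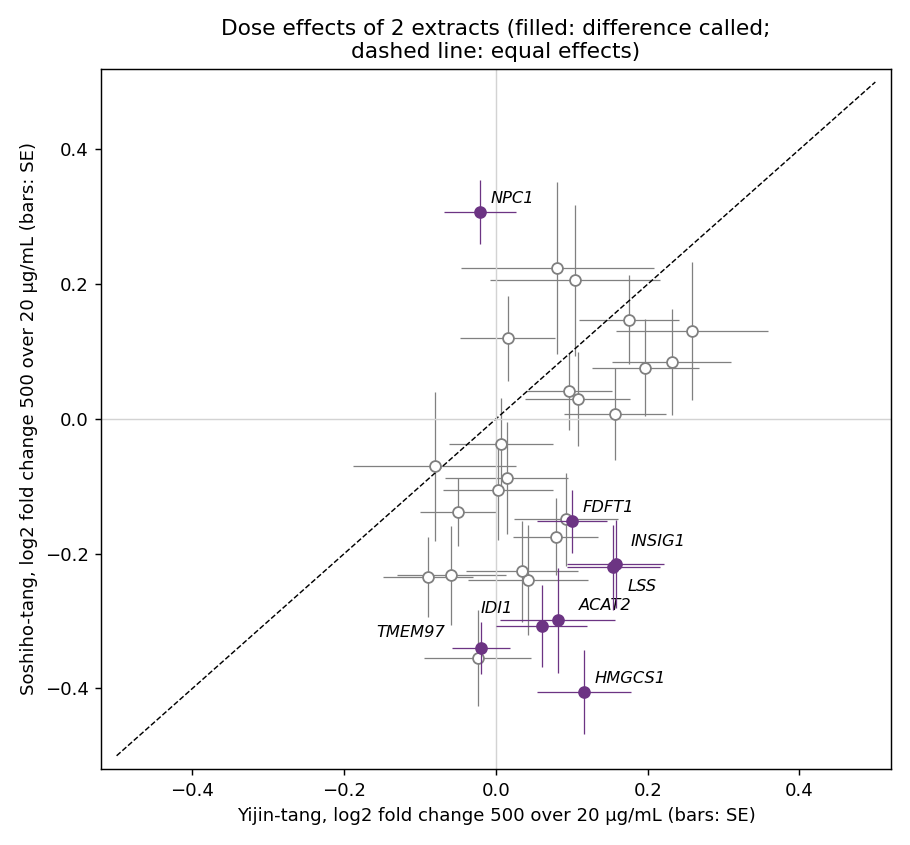
Log2 fold change between 500 and 20 µg/mL with Yijin-tang (x axis) and Soshiho-tang (y axis) for the 30 tested genes, with bars of 1 SE; filled points are the 8 genes whose dose effects differed and the dashed line marks equal effects. Of the filled points 7 lie below the line, HMGCS1 farthest, and NPC1 lies above it.

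Comparisons of Okbyeongpung-san with the other extracts were added after the values were seen. Against Yijin-tang 7 of 30 genes had a lower dose effect and 0 a higher one, beside 0.0859% and 0.0745% of all genes tested. The differences were −0.91 for INSIG1 (SE 0.10), −0.87 for HMGCS1 (SE 0.10), −0.87 for STARD4 (SE 0.11), −0.64 for IDI1, −0.64 for CYP51A1, −0.60 for LSS and −0.43 for FDFT1, with adjusted p between 3.11e-05 and 0.0265. In these 7 genes Okbyeongpung-san moved the level down while Yijin-tang had a positive log2 difference that did not pass the test. Without replicate 3 of Okbyeongpung-san at 500 µg/mL 11 genes were called, and HMGCS1, IDI1, INSIG1 and STARD4 were called in each of 10 omissions.

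Against Soshiho-tang the dose effect of Okbyeongpung-san differed in 7 of 30 genes, beside 7.01% of all genes tested. It was lower for STARD4 (−0.72, adjusted p = 0.000176), INSIG1 (−0.54, adjusted p = 0.00205), CYP51A1 (−0.49), NPC1 (−0.43, adjusted p = 0.000589), MSMO1 (−0.40) and HMGCS1 (−0.35, adjusted p = 0.0319), and higher for TMEM97 (0.22, adjusted p = 0.0279). The count was 4 without replicate 2 of Okbyeongpung-san or replicate 3 of Soshiho-tang at 20 µg/mL and 3 without replicate 3 of Okbyeongpung-san at 20 µg/mL, and STARD4, INSIG1 and NPC1 were called in each of 10 omissions. The call of HMGCS1 was lost in 7 of them (adjusted p = 0.294 without replicate 2 of Okbyeongpung-san at 500 µg/mL), and that of TMEM97 in 5. The 2 extracts share no library in this comparison. Of the 13 genes that fell with Soshiho-tang and the 8 that fell with Okbyeongpung-san between 500 and 20 µg/mL, 6 were in both (46.15% and 75% of the lists): ACAT2, FDFT1, HMGCS1, IDI1, INSIG1 and LSS. Both lists come from the same 30 genes, and the matching overlap over all genes tested was not counted, so nothing is drawn from these percentages.

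At 500 µg/mL Soshiho-tang was also compared directly with Yijin-tang. Of the 30 genes 13 were lower with Soshiho-tang and 1 was higher, beside 6.29% and 6.31% of all genes tested, and the medians were −0.19 and 0.01. HMGCS1 was lower by 0.54 (log2 fold change −0.54, SE 0.06), INSIG1 by a log2 fold change of −0.42, ACAT2 −0.40, LSS −0.39, IDI1 −0.38, MVK −0.36, LBR −0.33, FDFT1 −0.32, EBP −0.32, DHCR7 −0.31, SQLE −0.29, TMEM97 −0.29 and ERG28 −0.19. NPC1 was higher (0.30). Called or not, 20 of the 30 genes were lower in each Soshiho-tang library than in each Yijin-tang library and 1 was higher, beside 16.9% and 16.0% of all genes tested. Of the 14 calls, 13 held in each of 6 omissions. NEAT1 was higher by 0.77 in the same comparison, and COL1A1 (−0.70) and AKR1B10 (−0.24) were lower. The part of these genes was not tested. ERG28 lost its call in 3 omissions (adjusted p = 0.0945 without replicate 2 of Yijin-tang).

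Comparisons with vehicle share the 3 vehicle libraries, which differ from treated libraries in depth and mitochondrial RNA as given above. The nuclear RNAs NEAT1 and MALAT1 were also higher than in vehicle at 500 µg/mL of Soshiho-tang (1.17 and 1.18), Okbyeongpung-san (0.65 and 0.78) and Yijin-tang (0.40 and 0.75). The part of these in the values was not tested. At 500 µg/mL of Yijin-tang 15 of 30 genes were higher than in vehicle and 0 were lower, beside 8.12% and 7.56% of all genes tested. The median was 0.20 over the 30 genes and 0.01 over all genes. TM7SF2 was at 7.94, 8.88 and 8.53 CPM against 4.82, 5.91 and 5.46 CPM in vehicle, a rise of 0.64 (SE 0.11, adjusted p = 0.00042). It overlaps VPS51 on the same strand, so its reads are uncertain.

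LSS at 500 µg/mL of Yijin-tang was above vehicle (36.1, 36.8 and 37.6 CPM) in each library and rose by 0.37 (SE 0.06, adjusted p = 0.000421). MSMO1, at 41.6, 40.1 and 41.7 CPM against 32.5, 32.0 and 31.9 CPM, rose by 0.36 (SE 0.07, adjusted p = 0.00208). FDPS, at 116, 105 and 107 CPM against 85.0, 89.9 and 88.7 CPM, rose by 0.31. The other genes that rose were INSIG2 (0.39), PMVK (0.39), NPC2 (0.33), ACAT2 (0.31), STARD4 (0.30), DHCR7 (0.30), IDI1 (0.26), CYP51A1 (0.26), INSIG1 (0.22), FDFT1 (0.19) and HMGCS1 (0.18). Called or not, 24 of the 30 genes were higher in each Yijin-tang library than in each vehicle library and 1 was lower, beside 20.4% and 19.3% of all genes tested. Of the 15 calls 9 held in each omission, and that of HMGCS1 was lost in each of 6 (adjusted p = 0.164 without vehicle replicate 3).

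At 500 µg/mL of Soshiho-tang 8 genes were higher than in vehicle and 5 lower, beside 17.2% and 15.9% of all genes tested, and the median was −0.06. HMGCS1 (−0.36), TMEM97 (−0.35), LBR (−0.29), INSIG1 (−0.20) and FDFT1 (−0.13) fell. PMVK (0.59), INSIG2 (0.56), TM7SF2 (0.49), NPC2 (0.31), GGPS1 (0.31), MSMO1 (0.26), NPC1 (0.21) and FDPS (0.18) rose. At 500 µg/mL of Okbyeongpung-san 10 were lower and 2 higher, beside 7.75% and 7.19%, and the median was −0.16. INSIG1 (−0.86, SE 0.08), HMGCS1 (−0.65), STARD4 (−0.55), IDI1 (−0.34), SQLE (−0.33), FDFT1 (−0.29), CYP51A1 (−0.27), LSS (−0.25), NPC1 (−0.20) and TMEM97 (−0.18) fell, and PMVK (0.47) and NPC2 (0.22) rose. Of the 13 calls with Soshiho-tang 10 held in each omission, and those of FDPS, INSIG1 and FDFT1 were lost in at least 1. Of the 12 calls with Okbyeongpung-san 6 held in each omission (HMGCS1, FDFT1, SQLE, INSIG1, STARD4 and TMEM97). The rise of NPC1 with Soshiho-tang held in each of 6 omissions, and its fall with Okbyeongpung-san was lost without replicate 2 of that extract (adjusted p = 0.146).

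**Figure D4:**
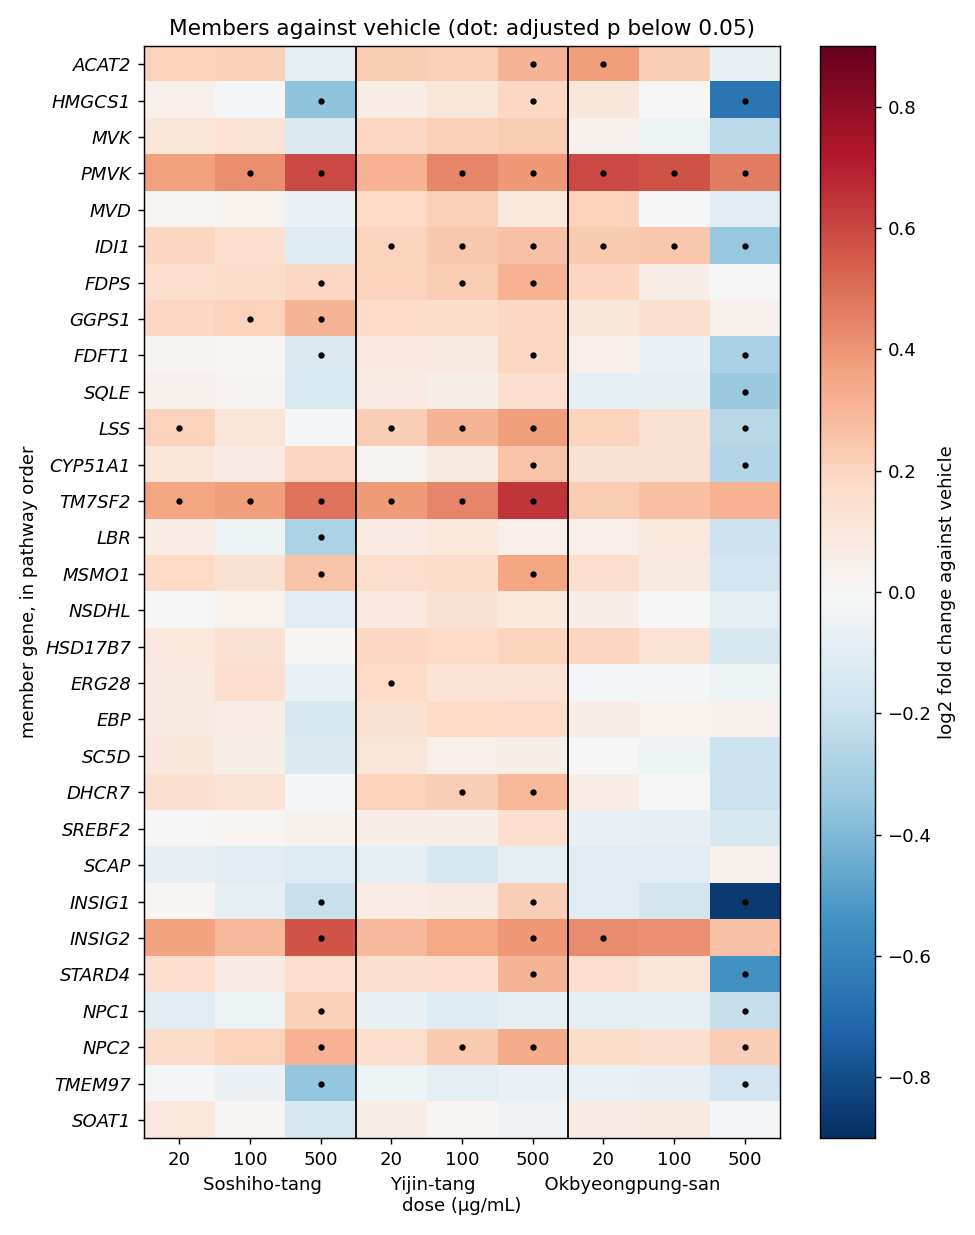
Log2 fold change against vehicle (colour) of the 30 tested genes (rows, in pathway order) at 20, 100 and 500 µg/mL of Soshiho-tang, Yijin-tang and Okbyeongpung-san (columns), with a dot for an adjusted p below 0.05. PMVK, TM7SF2, GGPS1, INSIG2 and NPC2 have positive values in all 9 columns. Negative values with a dot occur at 500 µg/mL of Soshiho-tang and Okbyeongpung-san only.

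Lower doses gave few calls, all of them higher than vehicle. The shares in brackets are of all genes tested that were called higher. Shares called lower are not given for these doses, so nothing is drawn from the direction. The 2 genes at 20 µg/mL of Soshiho-tang and at 100 µg/mL of Okbyeongpung-san were each 6.67% of the 30, near these shares. With Soshiho-tang 3 genes were higher at 100 µg/mL (PMVK, GGPS1 and TM7SF2; 5.57% of all genes tested) and 2 at 20 µg/mL (LSS and TM7SF2; 4.06%). With Yijin-tang 7 were higher at 100 µg/mL (PMVK, IDI1, FDPS, LSS, TM7SF2, DHCR7 and NPC2; 7.89%) and 4 at 20 µg/mL (IDI1, LSS, TM7SF2 and ERG28; 5.09%). With Okbyeongpung-san 2 were higher at 100 µg/mL (PMVK and IDI1; 4.75%) and 4 at 20 µg/mL (ACAT2, PMVK, IDI1 and INSIG2; 5.21%). The calls of IDI1 and LSS at 100 µg/mL of Yijin-tang held in each omission of 1 library, and each of the other 20 calls was lost in at least 1. For Soshiho-tang the count at 100 µg/mL was 0 or 1 without a vehicle library, 0 without its replicate 1 or 2 and 8 without its replicate 3, and at 20 µg/mL it was 0 without a vehicle library or its replicate 1 or 2. For Yijin-tang the count at 100 µg/mL was 3 without a vehicle library and 2 without its replicate 3, and at 20 µg/mL 0 or 1 without a vehicle library and 0 without its replicate 3. For Okbyeongpung-san the count at 100 µg/mL was 0 or 1 in each omission, and at 20 µg/mL it was 2 without vehicle replicate 2 or 3, 0 without its replicate 2 and 1 without its replicate 3. Between 100 and 20 µg/mL edgeR called 0 of the 30 genes with each of the 3 extracts (0%, 0.0229% and 0% of all genes tested for Soshiho-tang, Yijin-tang and Okbyeongpung-san), with 0 at an unadjusted p below 0.05 and 0 by DESeq2.

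PMVK and NPC2 were above vehicle in each treated library of the fit. In a single comparison 16% to 25.7% of all genes tested were above vehicle in each library, and 4.06% to 17.2% were called higher. The shares over all 9 comparisons, which have the vehicle libraries in common, were not counted. PMVK was at 15.1, 15.7 and 16.8 CPM in vehicle and was called higher in 7 of the 9 comparisons with vehicle, with log2 fold changes up to 0.60. NPC2 was at 34.9, 34.7 and 34.2 CPM in vehicle and was called in 4 of 9. TM7SF2 was called in 6 of 9. Between 500 and 20 µg/mL none of these 3 genes was called with an extract, at unadjusted p of 0.0135 or more.

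Of the 4 genes of SREBP2 control, SREBF2 and SCAP were not called in a comparison, while INSIG1 ranged over the comparisons with vehicle from −0.86 to 0.22 and INSIG2 from 0.26 to 0.56 with 3 calls. SREBF2 was at 119, 116 and 117 CPM in vehicle and between 95.1 and 134 CPM in the 30 libraries. Its log2 fold change in the 9 comparisons with vehicle lay between −0.14 at 500 µg/mL of Okbyeongpung-san (95% interval −0.27 to −0.02, adjusted p = 0.133) and 0.15 at 500 µg/mL of Yijin-tang (0.04 to 0.27, adjusted p = 0.0705). SREBF2, SCAP, HSD17B7, MVD and NSDHL were called in none of the 19 comparisons. The messenger RNA level of SREBF2 does not measure cleaved SREBP2 protein, for which the series holds no measurement analysed here.

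Summed over the 31 genes, vehicle was at 1800.0 ± 5.31 CPM (SD, n = 3). Yijin-tang was at 2017.5 ± 23.7 CPM (n = 3) at 500 µg/mL and at 1920 ± 23.5 CPM at 20 µg/mL. Soshiho-tang was at 1725 ± 23.6 CPM (n = 3) and 1892 ± 22.9 CPM, and Okbyeongpung-san at 1563 ± 19.02 CPM (n = 2) and 1878 ± 9.55 CPM. The high doses of Soshiho-tang and Okbyeongpung-san were below the range of vehicle (1795.6 to 1805.9 CPM), and that of Yijin-tang was above it. Each library at 20 µg/mL of these extracts was above it too. At 100 µg/mL Yijin-tang was at 1909.2 to 1954.7 CPM and Okbyeongpung-san at 1820.5 to 1834.8 CPM. Soshiho-tang at 100 µg/mL was at 1800.6 to 1899.2 CPM, which overlapped vehicle. The Soyo-san libraries were at 1983.4, 1861 and 1873.2 CPM at 500, 100 and 20 µg/mL.

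Over the 24 treated libraries of the fit, IDI1 had the highest Pearson correlation with HMGCS1 (0.968 of log2 CPM), followed by LSS (0.880), FDFT1 (0.868), INSIG1 (0.841) and LBR (0.806). Of the 29 other genes 9 were above 0.7 and 4 were below 0, namely NPC2, PMVK, NPC1 and SCAP (−0.341). SREBF2 was at 0.409. The libraries share extracts, doses and batches, so these values are a description of 24 points and carry no test.

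Fatty acid synthesis is driven by the related factor SREBP1 and was read from a list of 11 genes. With Okbyeongpung-san at 500 against 20 µg/mL 5 of 11 fell and 0 rose (median −0.28): SCD, the stearoyl-CoA desaturase, by 0.91 (SE 0.06, adjusted p = 6.84e-09), LPIN1 by 0.53, FADS2 by 0.43, ACACA by 0.37 and FADS1 by 0.34. SCD was at a mean of 649 CPM at 500 and 1217 CPM at 20 µg/mL, and at 1075 CPM in vehicle. Of all genes tested 0.613% were lower and 0.979% higher in this comparison. With Soshiho-tang 7 of 11 fell (FASN by 0.38, FADS2 by 0.31, SCD by 0.21, ELOVL6 by 0.19, ACLY by 0.19, LPIN1 by 0.16 and ACACA by 0.15) and MID1IP1 rose by 0.23. Of all genes tested 10.2% were lower and 10.3% higher. The mean of SCD was 1117 CPM at 500 and 1295 CPM at 20 µg/mL, both above the mean of vehicle. Against vehicle at 500 µg/mL of Soshiho-tang, ACLY, FASN, LPIN1 and SREBF1 were lower and FADS1 and MID1IP1 higher. With Yijin-tang SCD rose by 0.23 (adjusted p = 0.0311) and the other 10 did not pass the test, beside 0.704% of all genes tested called in either direction. SREBF1 was not called in these 3 comparisons.

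Further lists were read against the shares of all genes tested between 500 and 20 µg/mL of Soshiho-tang (10.3% higher and 10.2% lower), and nothing is drawn from counts of 1 or 2 genes in a list of 7 or 8. Of 8 genes that process or turn over SREBP and sterol sensors, ERLIN2 rose by 0.27 with Soshiho-tang between 20 and 500 µg/mL and 0 passed with Okbyeongpung-san or Yijin-tang. Of 7 genes of the liver X receptor, the sensor of excess sterol, MYLIP (−0.48) and LPCAT3 (−0.23) fell with Soshiho-tang and 0 passed with the other 2 extracts. Of 8 tested genes of sterol transport and ester turnover, NCEH1 rose and GRAMD1B fell with Soshiho-tang, GRAMD1B fell with Yijin-tang, and 0 passed with Okbyeongpung-san. Of 8 genes that use isoprenoids, DHDDS rose and FNTB fell with Soshiho-tang.

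Soyo-san had 1 library a dose and no test. Its HMGCS1 level was 174 CPM at 500 and 196 CPM at 20 µg/mL, while LSS was at 51.1 and 42.2 CPM and INSIG1 at 40.4 and 36.7 CPM. At 500 µg/mL 24 of 30 genes were above the range of the 3 vehicle libraries and 3 were below it (NPC1, TMEM97 and SOAT1), beside 35.9% and 32.7% of all genes tested. ACAT2, LSS and NPC2 were above each of the 27 libraries of the other groups, as were 2.46% of all genes. The 500 µg/mL library was above that of 20 µg/mL in 21 of 30 genes, with a median log2 ratio of 0.13, beside 51.1% of all genes with a median of 0.01. The Soyo-san libraries were of batch D and vehicle of batch E, so that batch and extract cannot be told apart.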

How the data were processed

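The authors deposited a table of expected counts by gene. The submitters' processing notes name RSEM 1.3.3, STAR 2.7.3a, Trim Galore 0.6.5 and FastQC 0.11.9, with GRCh38 (hg38) as the genome. Which annotation release and strand setting were used is not given in the sources used here, so genes that overlap another gene or have pseudogenes (such as FDPS, CYP51A1, HSD17B7 and TMEM97) have uncertain assignments. Per the labels the kit keeps strand. Libraries matched 30 columns, and another 30 columns were empty and left out. Between 9.09% and 11.6% of values per library were not whole, and all were rounded.

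The 27 libraries of 10 groups were fitted together with edgeR 4.0.16 (R 4.3.3): filterByExpr, TMM normalization and the quasi-likelihood F test, with Benjamini-Hochberg adjustment over 17461 genes. A gene was called at an adjusted p below 0.05, and adjusted p-values in the text come from this test. SE was taken as the size of the log2 fold change over the root of F, and 95% intervals are normal intervals from it. CPM use TMM-adjusted totals. DESeq2 1.42.0 was an alternative. The common dispersion gave a coefficient of variation of 6.89%. The scripts were tested on simulated data. No library repeated another.

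The genes and lists were chosen with earlier results of these data known. Library values are given for HMGCS1, INSIG1, SREBF2 and, per role, up to 3 genes with the largest change among those called for Soshiho-tang at 500 against 20 µg/mL, Yijin-tang at 500 µg/mL against vehicle or the 2 extracts at 500 µg/mL. Values of STARD4, SOAT1, CYP51A1 and Soyo-san libraries outside this rule, and the comparisons of Okbyeongpung-san dose effects with other extracts, were chosen after values were seen. Replicate numbers were checked for pairing: the correlation of deviations of libraries with the same number was above 0.1 for each pair only between 100 and 20 µg/mL of Yijin-tang (0.121 to 0.305), where 0 genes were called with and without a replicate block. Alternatives were other size factors, no filter, mitochondrial genes left out, a length and GC offset, only the compared groups, a replicate block, single batches and each library left out.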

Additional observations from a re-analysis of the deposited data

Results flagged for a closer look

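The change between 500 and 20 µg/mL of an extract differed between extracts, by a test of that difference, in 22 cases. Values are log2 differences of dose effects with edgeR adjusted p. For Soshiho-tang minus Yijin-tang they were −0.52 for HMGCS1 (0.000568), −0.32 for TMEM97 (0.000592), 0.33 for NPC1 (0.00345), −0.37 for IDI1 (0.0112), −0.38 for LSS (0.0125), −0.37 for INSIG1 (0.0176), −0.25 for FDFT1 (0.0268) and −0.38 for ACAT2 (0.0465). For Okbyeongpung-san minus Yijin-tang they were −0.91 for INSIG1 (3.11e-05), −0.87 for HMGCS1 (3.11e-05), −0.87 for STARD4 (0.000148), −0.64 for IDI1 (0.00125), −0.60 for LSS (0.00401), −0.43 for FDFT1 (0.00534) and −0.64 for CYP51A1 (0.0265). For Okbyeongpung-san minus Soshiho-tang they were −0.72 for STARD4 (0.000176), −0.43 for NPC1 (0.000589), −0.54 for INSIG1 (0.00205), −0.49 for CYP51A1 (0.0173), 0.22 for TMEM97 (0.0279), −0.35 for HMGCS1 (0.0319) and −0.40 for MSMO1 (0.0326). HMGCS1 and INSIG1 were called in all 3 pairs of extracts, of which 1 difference follows from the other 2. The call of INSIG1 for Soshiho-tang minus Yijin-tang did not hold in each omission of a library. Those of HMGCS1 and TMEM97 for Okbyeongpung-san minus Soshiho-tang, and both calls of CYP51A1, did not either. NPC1 and TMEM97 differed where Soshiho-tang was 1 of the pair, and STARD4 and CYP51A1 where Okbyeongpung-san was. Groups had 2 or 3 libraries, so no single library was examined as an outlier.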

How the results depend on the processing

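Of 120 calls of single genes in the 19 comparisons, 118 kept direction and call with DESeq2, 114 with DESeq2-type (RLE) size factors, 118 without mitochondrial genes, 107 without the filter on low counts, 110 with a length and GC offset, 91 in fits of only the groups compared and 119 with the replicate block. None changed direction under these settings, or when libraries were left out. Many calls were lost, however, when a library was left out, as given by comparison in the results, or when Okbyeongpung-san was limited to a single batch.

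Counts of called genes that moved by over 1.5 times are given with the count in the report first. With RLE size factors Soshiho-tang against vehicle went from 3 to 1 at 100 µg/mL and from 2 to 1 at 20 µg/mL. Yijin-tang at 20 µg/mL against vehicle went from 4 to 7 without the filter and to 9 with the offset, and at 100 µg/mL from 7 to 14 with the offset. In fits of only the groups compared, Soshiho-tang at 20 µg/mL against vehicle went from 2 to 10, Okbyeongpung-san against vehicle from 12 to 5 at 500, 2 to 8 at 100 and 4 to 12 at 20 µg/mL, and at 500 against 20 µg/mL from 8 to 0. In such fits the dose effect of Okbyeongpung-san against that of Yijin-tang went from 7 to 2 and against that of Soshiho-tang from 7 to 3. The cause was not tested, other than that these fits hold fewer libraries. With only batch E libraries of Okbyeongpung-san, 0 genes were called at 100 and 1 at 20 µg/mL against vehicle. With only batch D libraries, a setting chosen after the data were seen, 7 were called at 500, 0 at 100 and 0 at 20 µg/mL against vehicle, 3 at 500 against 20 µg/mL, and 3 and 3 in the differences from Yijin-tang and Soshiho-tang. A single library of a dose is then assumed to vary like the other groups.

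With the replicate number as a block, Soshiho-tang at 20 µg/mL against vehicle went from 2 to 5, and the block moved no other count by over 1.5 times. The numbers did not pair the libraries in that comparison (correlations from -0.012 to 0.030).

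With each library left out in turn, counts against vehicle ranged from 10 to 14 at 500, 0 to 8 at 100 and 0 to 2 at 20 µg/mL of Soshiho-tang, from 10 to 13, 2 to 7 and 0 to 4 for Yijin-tang, and from 8 to 15, 0 to 1 and 0 to 3 for Okbyeongpung-san. At 500 against 20 µg/mL they ranged from 7 to 12 for Soshiho-tang, 5 to 14 for Okbyeongpung-san and 0 to 0 for Yijin-tang. Between the extracts they ranged from 13 to 15 at 500 µg/mL (Soshiho-tang, Yijin-tang), and for differences of dose effects from 5 to 8 (Soshiho-tang and Yijin-tang), 5 to 11 (Okbyeongpung-san and Yijin-tang) and 3 to 10 (Okbyeongpung-san and Soshiho-tang).

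With 2 or 3 libraries a group and a coefficient of variation of 6.89%, a missing call does not show equal levels. Vehicle was in batch E only, so batch and extract cannot be told apart for libraries of batch D against vehicle. NPC1L1, at 1 to 8 counts per library, was too low to compare at this depth. Levels are of messenger RNA in 1 cell line at 1 time, and sterols were not measured.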
